A study of Mus musculus with 6 samples.

Results

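The 6 samples, labelled as heart of mouse fetuses, were divided by the level of an interferon-induced gene, and the resulting groups were compared across all genes. The gene was Usp18, which encodes the protease that removes the ubiquitin-like modifier ISG15 from proteins and which also restrains the type I interferon receptor. The groups were thus chosen by the measured Usp18 level. Arrays on which the Usp18 probe set of highest mean exceeded 100 intensity units were called interferon-high, and the others interferon-low. Of the 6 arrays, 3 were interferon-high and 3 were interferon-low. The high group held 1 Sp3 knockout sample (knockout b) and 2 wildtype samples (wildtype a and b), and the low group held 2 Sp3 knockout samples (knockout a and c) and 1 wildtype sample (wildtype c). Usp18 read 39.04, 464 and 35.1 units in the knockouts a, b and c and 226, 308 and 36.1 units in the wildtypes a, b and c. The member nearest above the threshold was wildtype a at 226 units, and the nearest below was knockout a at 39.04 units. No array lay between these values.

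The labels name genotype as the only difference between samples, all taken at E12.5, and name no treatment or infection. Sp3 belongs to the Sp family of zinc finger proteins, which bind GC boxes in promoters. The construction of the Sp3 allele, the strain, the litters and any history of the mothers are not given in the sources used here. RNA of each sample was hybridised to its own Affymetrix 430 2.0 array. Because the Usp18 values formed the groups, every high and low difference below is a description of these 6 arrays, without a test, and none of them supports the division. Levels are deposited intensities in units. Differences are on the log2 scale, high minus low with genotype as a covariate, and are followed by the standard error (SE) of the fit over the 3 high and 3 low arrays.

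The arrays were alike in general quality. Array medians ran from 22.5 to 26.7 units, the ratio of the 3′ to the 5′ Actb control probe sets from 1.29 to 1.35, and that of Gapdh from 0.850 to 0.933. Sp3 itself followed the labels in every sample, with 336, 324 and 392 units in the knockouts and 935, 871 and 742 units in the wildtypes. The markers went against the labelled tissue, so the samples are called here by genotype and letter. Percentiles of level are among all genes, each read at its brightest probe set. The 14 measured hepatocyte markers had a median level at the 97.9th percentile of all genes and the 14 erythroid markers at the 98.5th. The 20 heart muscle markers lay at the 40.5th. Alb, the plasma albumin gene of liver, read between 8356 and 10892 units, and Myh6, the atrial myosin heavy chain, between 1.25 and 10.4 units.

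Markers of sex did not follow the division by Usp18. Xist, the RNA of the inactive X chromosome, read 1502 units in knockout c and 1586 units in wildtype a, and 55.8 units or less on the other 4 arrays. Eif2s3y, a gene of the Y chromosome, read 99.5 units in knockout c and 2.53 units in wildtype a, against 389 to 469.7 units on the others. Wildtype a thus had bright Xist with little Y-linked signal, whereas knockout c had both bright Xist and Y-linked signal, with 37.98 units of Kdm5d against 4.76 in wildtype a. Without knockout c, 42 of the 73 interferon-induced genes described below were counted higher in place of 43, and their median difference was 1.25 in place of 1.40.

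Type I interferons are secreted proteins that bind the receptor chains Ifnar1 and Ifnar2. The kinases Jak1 and Tyk2 on these chains then phosphorylate Stat2, which joins Irf9 in a complex that binds the interferon-stimulated response element (ISRE) in the promoters of induced genes. The products of these genes sense viral nucleic acids, block viral replication, load peptides for presentation, and feed back on the receptor. In tissues free of infection these genes are generally kept low.

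The element shared by many of these genes can be read in their promoters. The search used the ISRE core, read as GAAA, any 2 bases and GAAA again, on both strands within the 250 bases before each gene's start, from RefSeq promoters of GRCm38.p6. Among the 33 interferon-induced genes that were counted higher by the criterion given below and had a promoter entry, 15 (45.5%) held the core. Among the 25 that were not counted and had an entry, 8 (32.0%) held it, and it occurred in 453 of the 14452 measured genes with an entry (3.13%) and in 978 of all 32851 promoters (2.98%). The gamma-activated site core, read as TTC, any 3 bases and GAA, occurred in 6 of the 33 (18.2%) and in 7.02% of all promoters. A match is a string of letters and not evidence of binding. Usp18 had no entry in the promoter table. The 120 bases before the start of 9 counted genes that hold the core in that stretch are shown 5′ to 3′ on the gene's strand, with the core in capitals (on the other strand it reads TTTC, any 2 bases and TTTC), to show the element in place.
Ifit1 (chr19:34640769-34640888, + strand): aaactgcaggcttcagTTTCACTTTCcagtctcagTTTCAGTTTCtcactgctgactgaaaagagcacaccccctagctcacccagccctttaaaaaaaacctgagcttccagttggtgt
Oas1a (chr5:120907526-120907645, - strand): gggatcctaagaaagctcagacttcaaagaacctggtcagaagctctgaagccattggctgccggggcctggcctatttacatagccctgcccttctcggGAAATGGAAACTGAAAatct
Igtp (chr11:58199436-58199555, + strand): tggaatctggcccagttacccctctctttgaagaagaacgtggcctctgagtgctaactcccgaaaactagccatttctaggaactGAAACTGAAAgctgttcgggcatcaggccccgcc
Irgm1 (chr11:48871421-48871540, - strand): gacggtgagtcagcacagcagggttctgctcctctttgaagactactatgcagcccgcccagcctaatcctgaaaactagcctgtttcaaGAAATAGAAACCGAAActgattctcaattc
Rsad2 (chr12:26456453-26456572, - strand): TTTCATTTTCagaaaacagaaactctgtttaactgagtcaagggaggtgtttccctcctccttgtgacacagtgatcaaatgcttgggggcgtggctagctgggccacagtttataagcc
Gbp7 (chr3:142530216-142530335, + strand): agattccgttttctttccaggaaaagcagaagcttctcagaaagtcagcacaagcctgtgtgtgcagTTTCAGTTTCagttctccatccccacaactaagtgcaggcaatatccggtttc
Gbp3 (chr3:142559924-142560043, + strand): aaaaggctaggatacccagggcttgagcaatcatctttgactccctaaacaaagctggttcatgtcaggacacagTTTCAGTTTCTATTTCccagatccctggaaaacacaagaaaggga
Trim30a (chr7:104465194-104465313, - strand): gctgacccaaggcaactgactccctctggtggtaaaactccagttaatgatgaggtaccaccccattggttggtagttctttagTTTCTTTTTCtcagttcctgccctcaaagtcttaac
Oas3 (chr5:120777660-120777779, - strand): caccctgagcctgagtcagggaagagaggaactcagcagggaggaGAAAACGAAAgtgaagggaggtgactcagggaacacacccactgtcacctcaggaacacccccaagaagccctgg
In Ifit1 the cores began 104 and 85 bases before the start, and in Oas1a 20 and 14 bases before it. The cores of Oas1a, Irgm1 and Gbp3 overlapped each other, and in Igtp a single core lay 34 bases before the start. In Rsad2 it began 120 bases before the start, the edge of the stretch. The 9 genes had the largest differences among counted genes of the interferon pathway lists with the core in that stretch. Others with the core there are not shown, among them Lgals9 at 55 bases. Still other counted genes held it farther out, among them Tdrd7 at 191 bases.

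Across all 45037 non-control probe sets, a probe set was counted higher when all 3 high arrays lay above all 3 low arrays and its difference was at least 1. A probe set was counted lower by the mirrored criterion. By this criterion 992 probe sets (2.2%) were counted higher and 1164 (2.58%) lower. Without the size criterion, all high arrays lay above all low arrays in 6.36% of probe sets and below them in 9.93%. Taken as genes, each read at its brightest probe set, 387 of 18193 (2.13%) were counted higher and 316 (1.74%) lower. Of the 73 measured genes of the 6 lists of interferon-induced genes, 43 were counted higher and 0 lower. These shares used the same arrays that the Usp18 value divided and are given as description only. Usp18, which formed the groups, is itself among the 73 and the 43. In 70 of the 73 the difference was above 0, against 45.7% of all genes, and the median difference was 1.40 against -0.03 over all genes. All 3 high arrays lay above all 3 low arrays in 52 of the 73, against 7.77% of all genes. They lay below in 9.23% of all genes, and these shares are the background for each list below. More than 1 probe set measured 37 of the 73 genes, and in 28 of these every probe set had a difference above 0.

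**Figure D1:**
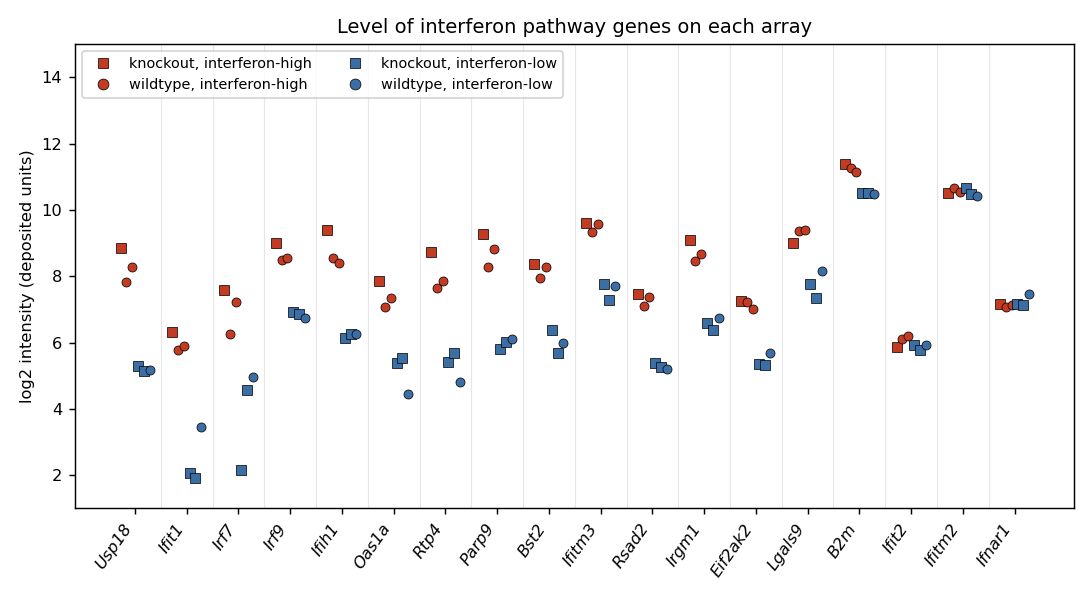
The vertical axis gives the log2 of the deposited intensity, and each column shows 1 gene on the 6 arrays, red for interferon-high and blue for interferon-low, squares for knockout and circles for wildtype. From Usp18 to B2m the 3 red points lie above the 3 blue points in each gene, whereas red and blue points mix in Ifit2, Ifitm2 and Ifnar1.

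The ligands were at the floor of the measurement. The 10 measured interferon genes had a median level at the 19.0th percentile of all genes and ranged over the arrays from 0.4645 units for Ifng to 26.7 units for Ifna5. One of them, Ifna5, was counted higher, with 26.7, 17.96 and 19.4 units on the high arrays and 2.44, 16.8 and 14 units on the low arrays, in the order knockout b, wildtype a, wildtype b and then knockout a, knockout c, wildtype c that is used throughout. Its lowest high value, 17.96 units, was close to its highest low value, 16.8 units. Ifna4 differed by 2.68 ± 1.15, but knockout c at 14.2 units lay above all 3 high arrays. Ifnb1, the interferon that infected cells of most tissues release early, read 17.9, 6.29 and 7.83 units on the high arrays and 18.4, 12.02 and 17.2 units on the low arrays. The groups overlapped.

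None of the 6 receptor genes was counted higher, against 2.13% of all genes. None had all high arrays on one side of all low arrays, against 7.77% of all genes above and 9.23% below. For 6 genes, none is near these shares. Their median difference was 0.06. Ifnar1 read 143, 136 and 139 units on the high arrays and 142, 142 and 177 units on the low arrays, and Ifnar2 read 241, 272 and 310.4 units on the high arrays and 252, 199.9 and 232 units on the low arrays. Ifngr1, a chain of the interferon gamma receptor, differed by -0.12 ± 0.17. The groups overlapped in each of these.

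Of the 12 measured kinases, transducers and interferon regulatory factors, 2 were counted higher and 4 were separated between the groups. Irf9, the DNA-binding partner of Stat2, read 508, 359 and 375 units on the high arrays and 121, 116 and 106 units on the low arrays. The groups were far apart, the low arrays lay close together, and the difference was 1.95 ± 0.14. Irf7, the factor that amplifies interferon alpha transcription, read 190.2, 76.97 and 149.7 units on the high arrays and 4.49, 23.7 and 31.3 units on the low arrays. It had a difference of 2.99 ± 0.88, with knockout a lowest at 4.49 units. Stat2 was separated at a smaller size, 0.85 ± 0.25, with 53.9 to 72.3 units on the high arrays and 34.6 to 38.8 on the low ones, while its dimmer probe set overlapped (0.10 ± 0.51). Jak1 was separated by 0.18 ± 0.10 at its brightest probe set, while its other 2 probe sets overlapped, at -0.23 and -0.06. The constitutive factor Irf3 (-0.07 ± 0.13), the interferon gamma target Irf1 (0.01 ± 0.19) and the kinase Tyk2 (-0.12 ± 0.21) overlapped.

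Of the 16 measured sensors of nucleic acid and their adaptors, 2 were counted higher and 5 were separated. Both counted genes encode RNA helicases that detect viral RNA. Ifih1 read 675, 376 and 339 units on the high arrays and 70.4, 76.9 and 77.1 units on the low arrays, a difference of 2.70 ± 0.20. Ddx58 read 152, 108 and 116 units on the high arrays and 41.7, 41.05 and 32.9 units on the low arrays, a difference of 1.82 ± 0.21. The low arrays differed little among themselves in either gene. Cgas, the sensor of cytosolic DNA, was separated by 0.83 ± 0.26, and Mavs, the mitochondrial adaptor of both helicases, by 0.46 ± 0.21. These are values of the brightest probe set of each gene. Dimmer probe sets overlapped in Cgas (0.65 ± 0.41), Mavs (0.38 ± 0.18) and Ddx58 (2.76 ± 0.85 and 2.07 ± 1.35). The adaptors Sting1 (-0.13 ± 0.25) and Myd88 (-0.02 ± 0.18) overlapped.

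Usp18 belongs to the pathway that attaches ISG15 to proteins. All 4 measured genes of that list were separated and 3 were counted higher, one of them Usp18 itself (3.26 ± 0.22). Uba7, the activating enzyme, read 732, 504 and 649 units on the high arrays and 296, 164 and 252 units on the low arrays, and Ube2l6, the conjugating enzyme, read 296, 265 and 345 units on the high arrays and 122, 75.9 and 127 units on the low arrays. Herc6, the ligase, was just under the criterion at 0.97 ± 0.26. Knockout c was the lowest array for Uba7 and Ube2l6, at 164 and 75.9 units.

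The IFIT proteins bind viral RNA caps and ends. Ifit1 read 79.25, 54.9 and 60.1 units on the high arrays and 4.23, 3.802 and 11.1 units on the low arrays, a difference of 3.34 ± 0.51, and Ifit3 read 68.5, 40.3 and 47.3 units on the high arrays and 2.34, 15.6 and 27.1 units on the low arrays, a difference of 2.10 ± 0.83. Both were counted higher. Ifit2, a neighbour of the same family, read 58.4, 69.2 and 73.03 units on the high arrays and 60.9, 54.7 and 60.5 units on the low arrays and differed by 0.12 ± 0.22. Its single probe set thus overlapped between the groups.

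Of 7 measured OAS genes, whose products make the oligoadenylates that activate RNase L, 3 were counted higher and 7 had a difference above 0. Oas1a read 231, 135 and 163 units on the high arrays and 41.9, 46.7 and 21.7 units on the low arrays, a difference of 2.58 ± 0.21. Oasl2 differed by 2.00 ± 0.36, and Oas3 by 1.57 ± 0.71 at a low level of 5.17 to 17.02 units. Oas2 overlapped at 0.52 ± 0.39.

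The antiviral effectors were the list with the most counted genes, 15 of 22 measured, with 17 separated and a median difference of 1.55. Parp9 and its partner ligase Dtx3l, which act together on the transcription of interferon-induced genes, read 625, 309 and 448 units on the high arrays and 56.5, 64.8 and 69.1 units on the low arrays and 504, 289.9 and 286 units on the high arrays and 80.4, 70.5 and 96 units on the low arrays. Rsad2, the radical enzyme viperin that makes a chain-terminating nucleotide, read 177, 137 and 166 units on the high arrays and 41.9, 38.4 and 36.9 units on the low arrays. The 3 low arrays of Rsad2 lay close together. Bst2, the tether that holds budding virions on the cell surface, differed by 2.24 ± 0.21, Ifitm3, which blocks viral entry through endosomes, by 1.91 ± 0.15, and Eif2ak2, the RNA-activated kinase that stops translation, by 1.67 ± 0.21. Adar, the RNA editing enzyme, read 311, 203 and 229.9 units on the high arrays and 98.1, 151 and 121 units on the low arrays and was near the criterion at 1.09 ± 0.20. Trim25 (0.56 ± 0.12) was separated without reaching the criterion at its brightest probe set, and a dimmer one was counted higher at 1.03 ± 0.26. Ifitm2 read 1453, 1601 and 1496 units on the high arrays and 1614, 1433 and 1364 units on the low arrays and overlapped, as did Ifitm1 (-0.15 ± 0.18), so the family was divided. Mx1 (2.05 ± 0.72) and Mx2 (2.59 ± 1.05), GTPases that trap viral particles, were counted higher at levels of 23.2 units and below.

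The interferon-induced GTPases act on the vacuoles of intracellular pathogens. Of 8 measured, 6 were counted higher, and the list had the largest median difference of the 37 lists, 2.00. Irgm1 read 545, 350.2 and 408 units on the high arrays and 95.7, 83.8 and 107 units on the low arrays, a difference of 2.21 ± 0.18. Igtp differed by 2.34 ± 0.40 but unlike the others had an intermediate low array, knockout a at 303 units against 116 and 93.5 units in knockout c and wildtype c. Irgm2 showed the same with 503, 399 and 153 units on the high arrays and 182, 30.4 and 39.4 units on the low arrays, so that knockout a exceeded wildtype b and the groups overlapped despite a difference of 2.70 ± 0.95. Iigp1 was counted at 1.08 ± 0.25 at its brighter probe set, while its dimmer one overlapped at 0.21 ± 0.43. Members of this family, like the OAS, IFIT and interferon alpha genes, have close relatives in the genome whose transcripts a probe set may share.

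Among 27 other measured genes induced by interferon, 14 were counted higher and 26 had a difference above 0. Ifi27 read 639, 280.1 and 406 units on the high arrays and 48.5, 73.2 and 63.9 units on the low arrays, a difference of 2.91 ± 0.26. Rtp4, a receptor-transporting protein, read 422, 199.7 and 229.9 units on the high arrays and 42.5, 51.8 and 28.3 units on the low arrays, a difference of 3.05 ± 0.19. Ifi27l2a had the largest difference of all lists at 4.01 ± 0.66, from levels of 1.85 to 20.2 units on the low arrays. Lgals9, a galectin, read 512, 652 and 666 units on the high arrays and 218, 164 and 287 units on the low arrays, and Ifi35 read 1691, 1162 and 1451 units on the high arrays and 726, 401 and 549.7 units on the low arrays. Both had every high array above every low one.

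Antigen presentation through MHC class I moved by less. Of 15 measured genes, 9 were separated, 2 were counted higher and the median difference was 0.53. B2m, the invariant chain of every class I molecule, read 2672, 2438 and 2262 units on the high arrays and 1471, 1452 and 1414 units on the low arrays, a difference of 0.80 ± 0.08 that was large beside its SE. The heavy chain genes H2-D1 (0.72 ± 0.13) and H2-K1 (0.53 ± 0.13) were separated. The counted genes were H2-T24 (1.07 ± 0.22) and Tap1 (3.47 ± 0.83), a subunit of the peptide transporter, which was dim at 1.44 to 43.1 units. Tapbp, which bridges the transporter and the class I molecule, reached 0.98 ± 0.15. The proteasome subunits Psmb8 and Psmb9 overlapped, at 0.60 ± 0.43 and 0.88 ± 0.63. Among 6 measured class II genes 1 was counted, H2-Eb1 at 14.8 units and below.

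The chemokines were mostly dim, with a median level well under that of all genes. Of the 9 measured, 6 had a difference above 0, and the median was 0.80, with 1.06 within the knockouts and 0.37 within the wildtypes. Cxcl10, which attracts activated T cells, was the only gene counted, with 42.3, 103 and 101 units on the high arrays and 32.97, 29.2 and 33.7 units on the low arrays and a difference of 1.02 ± 0.29. Knockout b, the array with the highest Usp18, was the lowest of the high arrays there, and Cxcl10 differed by 0.45 among the knockouts and 1.60 among the wildtypes. None of 8 brakes on cytokine signalling was counted, where 2.13% of all genes were counted higher and 1.74% lower. The median difference of the brakes was 0.09. Socs1 (0.32 ± 0.82) and Socs3 (0.35 ± 0.29) overlapped, and Cish, a target of Stat5, reached 0.90 ± 0.24 with overlap. Of 19 measured targets of NF-kB, 14 had a difference above 0, 2 were separated upward, 0 were counted higher and 1 was counted lower, with a median difference of 0.14.

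**Figure D2:**
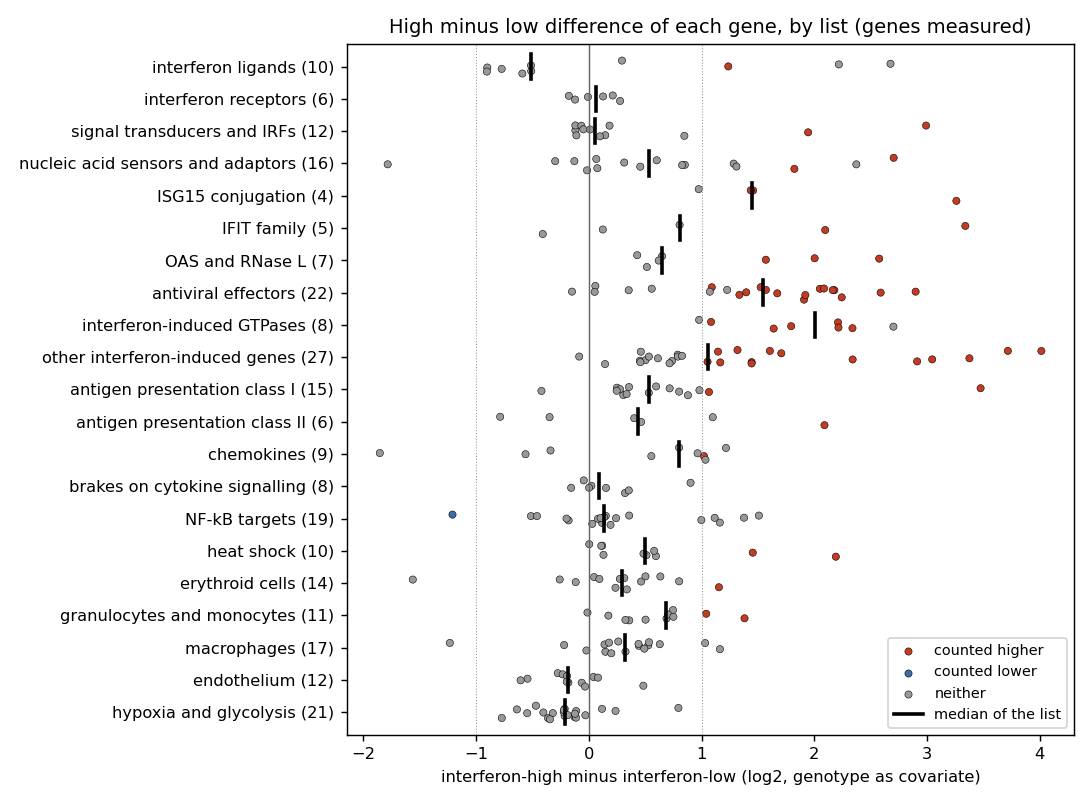
Each point is 1 gene at its high minus low difference (log2, genotype as covariate), in rows by list with the number of measured genes in parentheses. Red marks genes counted higher, blue genes counted lower, and the black bar is the median, which lies at 2.00 in the interferon-induced GTPases, 1.55 in the antiviral effectors and 0.06 in the receptors.

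The high group was not uniform. Knockout b gave the highest value of the 6 arrays in 51 of the 73 interferon-induced genes and in 37 of the 43 counted higher, against 2690 of all 18193 genes and 166 of the 387 counted higher among them. The mean level of the 73 genes, relative to its mean over the 6 arrays, was 0.98 in knockout b, 0.56 in wildtype a and 0.49 in wildtype b on the log2 scale. It was -0.67, -0.65 and -0.72 in knockout a, knockout c and wildtype c. The low arrays of both genotypes thus lay close together, and the high arrays were spread more widely. The median difference was 1.65 within the knockouts, with 1 array against 2, and 0.93 within the wildtypes, with 2 arrays against 1. Without knockout b, which leaves the wildtype contrast, 32 of the 73 genes were counted higher in place of 43, all among the 43. That the knockout contrast exceeds the wildtype one was not tested, because each genotype has a single array on one side.

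The contrasts within each genotype share no array. Among the 10826 genes above the median level of all probe sets, 154 (1.42%) had a difference of at least 1 within the knockouts and 137 (1.27%) within the wildtypes. Both lists held 56 genes, which was 36.4% of the knockout list and 40.9% of the wildtype list. Of the 39 interferon-induced genes on the knockout list, 25 were also on the wildtype list, and all 25 interferon-induced genes on the wildtype list were on the knockout list. The Usp18 threshold placed arrays of both genotypes, and Usp18 is itself among the 25, so these shares are again descriptive.

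**Figure D3:**
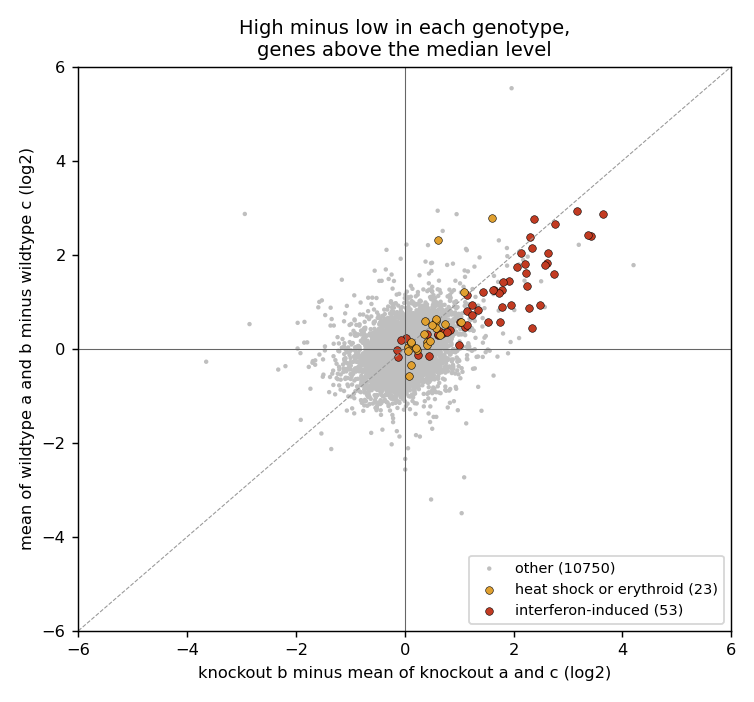
Each point is 1 of 10826 genes above the median level, with the difference within the knockouts (knockout b minus the mean of a and c) on the horizontal axis and within the wildtypes (the mean of a and b minus c) on the vertical axis, both log2. The 53 interferon-induced genes (red) extend to the upper right and lie mostly below the dashed line of equality, and most of the 23 heat shock and erythroid genes (orange) lie nearer to 0, with Hspa1b and Hspa1a above the line.

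The 12 genes of largest difference among separated probe sets above the median level were, in order, Ifi27, Usp18, Rtp4, Irf7, Mndal, Parp9, Ifih1, Oas1a, Xaf1, Igtp, Hspa1b and Bst2. For this ranking each gene was taken at its probe set of largest difference, from 3.58 for Ifi27 to 2.24 for Bst2. Of the 12, 10 were in the lists of the interferon pathway, among them Usp18, which formed the groups. Mndal, a member of the family of DNA-binding Ifi200 proteins, was not in these lists, and the other exception was Hspa1b, an inducible chaperone of the Hsp70 family. Among probe sets to which the annotation gives no gene or several genes, 1431591_s_at read 636, 279.7 and 539 units on the high arrays and 30.5, 24.8 and 21.4 units on the low arrays, and 1450033_a_at read 624, 273 and 464 units on the high arrays and 95, 114 and 96.6 units on the low arrays. Both have the order of the interferon-induced genes, with the 3 low arrays close together.

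Many genes outside the lists of the interferon pathway had a different order among the low arrays. These lists are not complete, so absence from them does not place a gene outside the pathway. Above the median level, 82 of 10826 genes (0.757%) were counted higher, of which 33 belonged to the interferon-induced lists, 6 to other lists of the pathway and 43 to none of them. The position of knockout a was measured between the mean of knockout c and wildtype c, set at 0, and the mean of the 3 high arrays, set at 1, a measure chosen after the values were seen. Knockout a lay nearer to the other low arrays in 32 of the 33 interferon-induced genes, with a median position of 0.05, and in all 6 of the other pathway genes. Igtp was the exception, at 0.61. The 33 include Usp18, which formed the groups. Among the 43 genes outside the lists, knockout a lay nearer to the high arrays in 24, with a median position of 0.55. In these 24 genes knockout a was the highest low array except in Ltf, where wildtype c at 127 units lay above knockout a at 114 units. In Il13ra1 wildtype c was also near knockout a, at 29.8 against 36.4 units.

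Some of the 43 followed the interferon order. Rnf213, a giant ubiquitin ligase, read 1160, 559 and 842 units on the high arrays and 231, 285 and 185 units on the low arrays, with knockout a at a position of 0.0044. Trim12c (1.97 ± 0.26) and Helz2 (1.42 ± 0.26) also had knockout a near 0, at 0.13 and 0.04, as did Fads3, a fatty acid desaturase gene, with 106, 137 and 168 units on the high arrays and 29.7, 34.8 and 30.7 units on the low arrays. These 4 genes were chosen after their values were seen.

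Some heat shock genes had this other order. All 10 measured genes of this list, chaperones and their partners, had a difference above 0, 8 were separated and 2 were counted higher. Hspa1b read 374, 322 and 299 units on the high arrays and 242, 62.7 and 45.2 units on the low arrays, a difference of 2.19 ± 0.64. Hspa1a, its near-identical neighbour that the probe sets may not tell apart, read 69.3, 77.7 and 81.5 units on the high arrays and 63.8, 32.5 and 16.1 units on the low arrays. In both, knockout a stood with the high arrays in size and the low values were those of knockout c and wildtype c. The order was not that of the whole list. In Hsph1, an exchange factor, wildtype c at 1462 units lay above knockout a at 1377 units, and in Bag3, a cochaperone, knockout c was the highest low array at 89.8 units. Dnajb1, the partner of Hsp70, read 1432, 1612 and 1717 units on the high arrays and 1216, 768 and 1080.5 units on the low arrays and differed by 0.60 ± 0.15, and Hsph1 differed by 0.51 ± 0.13. The abundant constitutive chaperone Hspa8 differed by 0.13 ± 0.06, and Hspd1 of mitochondria by 0.00 ± 0.07. The mean level of the list was 0.24 to 0.39 on the high arrays, 0.00 in knockout a, -0.47 in knockout c and -0.43 in wildtype c.

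Most red cell genes were lowest in knockout c. Of 14 measured erythroid genes, 8 were separated and 1 was counted higher, with a median difference of 0.30. Alas2, the first enzyme of heme synthesis in red cells, read 3187, 3281 and 4652 units on the high arrays and 2940.1, 759 and 1683 units on the low arrays, a difference of 1.15 ± 0.69. Trim10 (0.80 ± 0.33) and the membrane genes Epb42 (0.63 ± 0.19) and Slc4a1 (0.46 ± 0.25) were separated at smaller sizes, and in Trim10 and Epb42 wildtype c lay above knockout a. A dimmer probe set of Slc4a1 was counted higher at 1.01 ± 0.51. The globins of the list did not follow. Hba-x (-0.26 ± 0.18), Hbb-bh1 (-0.12 ± 0.13) and the dim Hba-a1 (-1.56 ± 0.98) had differences below 0, with overlap. The embryonic globin Hbb-y was bright on every array and differed by 0.05 ± 0.05. A globin outside the list, Hbb-b2, was counted higher at 1.93 ± 0.90. Hbb-b2 read 1487, 1686 and 1790 units on the high arrays and 1000, 162 and 444 units on the low arrays. Outside the list, Tmcc2 read 2469.9, 2445 and 3683 units on the high arrays and 1572, 288 and 680.3 units on the low arrays, Tent5c read 1246, 1179 and 1627 units on the high arrays and 1079.7, 309.9 and 480.3 units on the low arrays, and Xpo7 differed by 1.19 ± 0.29. The erythroid list level was lowest in knockout c, at -0.42, and lay between 0.00 and 0.15 on the other 5 arrays. Without knockout c 8 erythroid genes were still separated, none was counted and the median difference was 0.21. In whole tissue, fewer cells of a type and less RNA per cell cannot be told apart.

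White cell markers moved with the groups in part. Of 11 measured granulocyte and monocyte genes, 10 had a difference above 0, 5 were separated, and Ctsg and Ltf, granule proteins, were counted higher. Ctsg read 77.8, 84.4 and 102 units on the high arrays and 60.5, 21.8 and 29.3 units on the low arrays, and S100a8 differed by 0.75 ± 0.15. Mpo, the peroxidase of early granulocytes, overlapped at 0.17 ± 0.19. Without knockout c 5 genes of the list were separated and 1 was counted. The level of this list was 0.16 to 0.56 on the high arrays and 0.14, -0.98 and -0.16 in knockout a, knockout c and wildtype c. Of 17 macrophage genes none was counted and 4 were separated, among them Adgre1 (0.63 ± 0.23), while the receptor Csf1r (-0.02 ± 0.15) and the complement gene C1qa (0.26 ± 0.20) overlapped. Without knockout c 4 were separated and the median difference was 0.15 in place of 0.33. The macrophage level was 0.09 to 0.38 on the high arrays and -0.75 to 0.16 on the low ones. The part of these cells in the interferon values was not tested.

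Plasmacytoid dendritic cells, the blood cells that release most interferon alpha, were checked by their markers. Siglech, their defining surface marker, read 1.22 to 3.02 units on all arrays, and Irf8 (-0.11 ± 0.28) overlapped. Tcf4 (-0.53 ± 0.23) had every high array below every low one. Of the 10 measured genes of this list, Bst2 was the only gene counted higher, and it is also an interferon-induced gene. Pacsin1 was counted lower at 13.7 units and below.

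**Figure D4:**
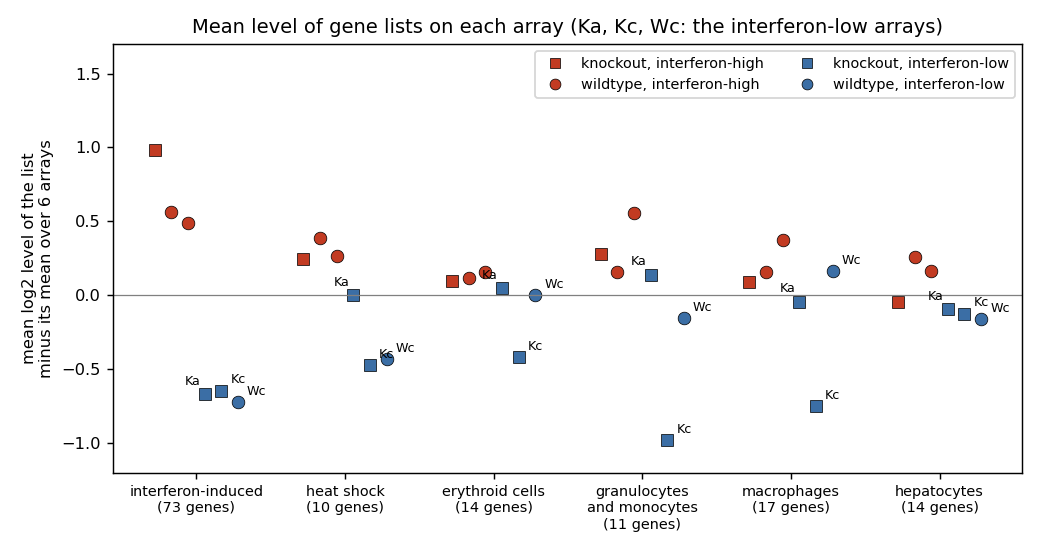
For 6 gene lists the vertical axis gives the mean log2 level on each array minus the mean over the 6 arrays, red for interferon-high and blue for interferon-low, squares for knockout and circles for wildtype, with Ka, Kc and Wc naming the low arrays. The low arrays lie together at -0.72 to -0.65 in the interferon-induced genes, whereas knockout a lies at 0.00 in heat shock genes and knockout c lies alone at -0.42, -0.98 and -0.75 in the erythroid, granulocyte and macrophage lists.

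Among probe sets without a single annotated gene, the order of Hspa1b appeared at a larger size. Probe set 1418493_a_at read 751, 739 and 1021 units on the high arrays and 552, 2.01 and 2.51 units on the low arrays, and 1436853_a_at read 913, 1107 and 1467 units on the high arrays and 842, 0.6904 and 10.9 units on the low arrays. Both were bright on the 3 high arrays and in knockout a and near the floor in knockout c and wildtype c. The annotation gives neither of them 1 gene.

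Genes counted lower were mostly dim. Of the 1164 probe sets counted lower, 1051 lay at or below the median level (4.67% of those) and 113 above it (0.502%), whereas 852 (3.78%) and 140 (0.622%) were counted higher. In the brightest of 10 level classes of probe sets 13 were counted higher and 1 lower. The residual spread fell from a median of 1.21 in the dimmest class to 0.112 in the brightest. Adding 16 units to every value before log2 left 118 counted higher and 31 lower, so the share counted higher among all counted was 79.2% in place of 46.0%. It was 54.1% after quantile normalization and 57.4% after median centring. The median difference of all probe sets was -0.07 as deposited, -0.04 with 16 units added, -0.01 after quantile normalization and 0.02 after centring.

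**Figure D5:**
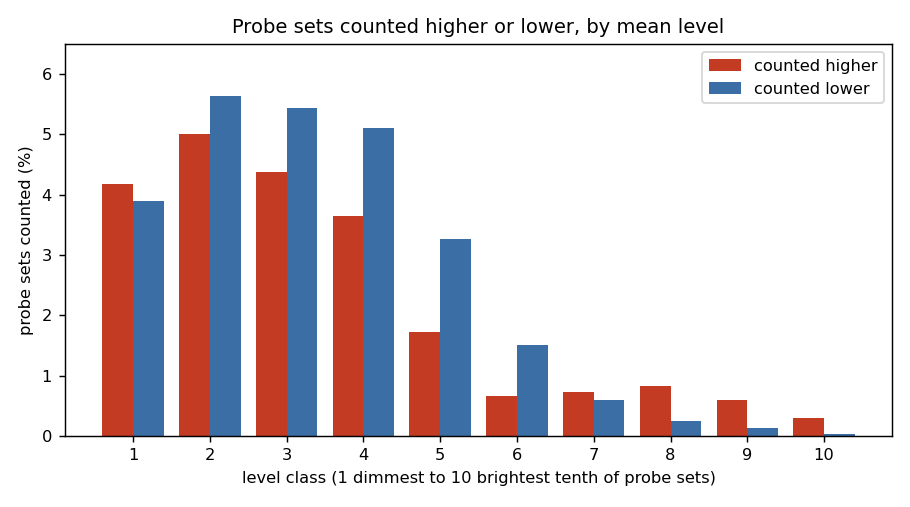
Bars give the percentage of probe sets counted higher (red) and lower (blue) in 10 classes of mean level, each of about 4504 probe sets, from dimmest to brightest. Lower calls exceed higher calls in classes 2 to 6 and fall to 0.0222% in class 10, where 0.289% are counted higher.

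The 12 genes with the largest lower differences above the median level were Gm13306, Synpo2, Zfp622, Cpt1a, Anapc11, Crb3, Klf7, Epha4, Apcdd1, Neo1, Safb and Trappc6a, from -1.74 to -1.33. Crb3 (-1.54 ± 1.03), Klf7 (-1.52 ± 0.75) and Safb (-1.34 ± 0.61) were lowest in wildtype b, at 2.02, 3.36 and 4.44 units. Within the knockouts they differed by -0.27, -0.83 and -0.71. Gm13306 read 51.4, 34.3 and 34.2 units on the high arrays and 83.5, 206 and 150.3 units on the low arrays. Cpt1a, which brings long-chain fatty acids into mitochondria, read 23.4, 24.1 and 19.3 units on the high arrays and 38.8, 59.7 and 96.4 units on the low arrays at this probe set. The hypoxia and glycolysis list had 3 of 21 genes with a difference above 0 and a median of -0.21. The median was, however, -0.46 within the knockouts and 0.07 within the wildtypes. Of the 21 genes, 2 were separated downward, near the 9.23% of all genes. In the endothelium list 5 of 12 genes were separated downward, against 9.23% of all genes, Emcn the farthest at -0.60 ± 0.26. Lyve1, a hyaluronan receptor of liver sinusoids and lymphatics, was separated upward at 0.48 ± 0.16.

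Genotype was tested with the interferon group as a covariate, since the labels give genotype and Usp18 did not choose it. limma called 7 probe sets higher (0.0155%) and 10 lower (0.0222%) in the knockouts at an adjusted p under 0.05, and 2979 (6.61%) had an unadjusted p under 0.05. None of the 73 interferon-induced genes was called by limma, against 12 of 18193 genes (0.066%), and 9 had an unadjusted p under 0.05, against 8.24% of all genes. Their median genotype difference, knockout minus wildtype, was 0.15. With the interferon group held fixed, the fitted knockout minus wildtype difference was above 0 in Rtp4 (0.85 ± 0.19, SE, limma adjusted p = 0.264) and Oas1a (0.83 ± 0.21, adjusted p = 0.454) and below 0 in Lgals9 (-0.48 ± 0.14, adjusted p = 0.563) and Ly6e (-0.47 ± 0.13, adjusted p = 0.528), all short of the threshold. Without the interferon group, the mean log2 level of the 3 knockouts was not above that of the wildtypes in Rtp4 or Oas1a, so their sign rests on the covariate.

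Sp3 fell by 1.25 ± 0.13 (SE) on the log2 scale in the knockouts (limma adjusted p = 0.00463), and its high minus low difference was 0.06 ± 0.13. Ifi30, a lysosomal thiol reductase named for its induction by interferon gamma, fell by 1.10 on the log2 scale in the knockouts (SE 0.12, limma adjusted p = 0.00625), with 264, 284 and 287 units in the knockouts and 609, 684 and 559 units in the wildtypes. It differed by 0.13 ± 0.12 between high and low arrays, so it divided the arrays by genotype and not by Usp18. Cd5l, a protein secreted by tissue macrophages, showed both. It fell by 1.86 ± 0.26 (SE) in the knockouts (limma adjusted p = 0.0304) and was higher on the high arrays by 1.16 ± 0.26, with 29.3, 66.7 and 19.98 units in the knockouts and 160.0, 241 and 108 units in the wildtypes. Ifi30 was named after its values were seen. The calls rest on few arrays: without the interferon covariate limma called 14 probe sets, without knockout b 0 (2316 at an unadjusted p under 0.05, adjusted p of Sp3 = 0.902), without wildtype c 2, and without the intensity trend 0 (2655 at an unadjusted p under 0.05).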

How the data were processed

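Arrays of 6 samples labelled as heart, 3 Sp3 knockout and 3 wildtype, were analysed, with groups and letters from the titles. The authors deposited linear intensities, from 0.0562 to 12897 units. GCOS and RMA appear in the submitters' processing notes, with no role stated for either. The design had assumed log2 values, so log2 of the deposited intensity was taken, with no other normalization. Control probe sets (64) were left out. Of the 45037 others, the annotation gives 1 gene to 34945, several to 932 and none to 9160. Symbols were checked against GRCm38.p6 (34741 identifiers matched, 0 changed).

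R 4.3.3 with limma 3.58.1 fitted genotype and interferon group over all probe sets (empirical Bayes with trend and robust estimation). Only genotype was tested, two-sided, with Benjamini-Hochberg adjusted p-values, and the fit was tested on simulated data. Each array is 1 sample labelled as heart, so the p-values reflect only how far these samples differ. The titles do not say whether a sample is 1 heart or a pool. The number of arrays limits the precision. Named genes are Usp18, Ifit1, Sp3, list members by role and the 12 largest differences each way among separated probe sets above the median level. The groups, members and lists were chosen with earlier results of these data known. Letters were not taken as pairs. Correlations between arrays used probe sets above the median level. For the levels themselves, same-letter correlations were 0.970, 0.969 and 0.972. Knockout a and c were then closest to wildtype c, and knockout b to wildtype a. After each genotype's mean was subtracted, same-letter correlations were 0.01, 0.31 and 0.44. By that measure knockout b and c each correlated best with the wildtype of the same letter, but knockout a correlated best with wildtype b, at 0.13. Both b arrays were interferon-high and both c arrays interferon-low. Alternatives were scaling, filters, a letter block, other covariates and leaving out each array.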

Additional observations from a re-analysis of the deposited data

Results flagged for a closer look

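In 3 genes that were described, the high minus low difference (log2) had opposite signs in the genotypes. The high knockout lay above both low knockouts, and both high wildtypes lay below the low wildtype. The receptor chain Ifnar1 differed by 0.0096 within the knockouts, which is almost no difference, and by -0.36 within the wildtypes. The receptor kinase Tyk2 differed by 0.16 and -0.40. The embryonic globin Hbb-bh1 differed by 0.12 and -0.35. The difference between genotypes was not tested, since each genotype has 1 array on one side.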

How the results depend on the processing

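The median difference of interferon-induced genes stayed above 0 under every alternative run. Of the 73 genes, 34 to 45 were counted higher under the alternatives that kept all arrays, and 32 to 46 without each array. Their median difference was 0.96 with 16 units added, and 0.93 to 1.65 without each array. The counts over all probe sets depended more on the processing. They were 118 higher and 31 lower with 16 units added, 140 and 113 above the median level, and 387 and 316 as genes. A fold of at least 1.5 gave 2189 lower. Without each array, 1446 to 1934 were counted higher and 1629 to 2559 lower. The genotype test called 17 probe sets as reported, 34 above the median level, 30 with the Usp18 level as covariate, 0 without the trend (2655 at an unadjusted p under 0.05), and 0 to 11 without each array, the 0 without knockout b.

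The letters were not taken as pairs. After each genotype's mean was subtracted, knockout b and c correlated best with the wildtype of their own letter, but knockout a correlated best with wildtype b. With the letter as a replicate block 838 probe sets were counted higher, 886 lower, 36 interferon-induced genes higher (median 1.39), and 42 genotype differences were called. Under this block the difference turned for Crb3 (1.21), Klf7 (0.93), Safb (0.85), Alas2 (-0.69), Ltf (-1.24), Tmcc2 (-0.27), Tent5c (-0.38) and Dnaja4 (-0.026). With 3 arrays a group, and with levels at or below the median in most probe sets counted either way, the dim differences are the least certain.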
